A study of Homo sapiens with 12 samples.

Results

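The feedback inhibitors of receptor kinase and ERK signalling were described here by the Flag ChIP-seq peaks at 10 genes, namely ERRFI1, DUSP1, DUSP4, DUSP5, DUSP6, SPRY1, SPRY2, SPRY4, SPRED1 and SPRED2, out of 19866 protein-coding genes of the annotation. They were listed by their known function and chosen by a measured value in part, because ERRFI1 held one of the highest RNaseH1 peaks of the data. The values below for RNaseH1 are therefore a description without a test. U2OS cells, a human osteosarcoma line, carried a tet-on transgene for a Flag-tagged, nuclease-dead protein, and the question was whether that protein binds R-loops. An R-loop is a stretch where RNA pairs with a DNA strand and leaves the other strand single. The lines expressed RNaseH1-D210N, a mutant form of an enzyme known to cut the RNA of RNA:DNA hybrids, and REXO4-D386A, a mutant of an RNA exonuclease family protein. Each line was grown with doxycycline (1 µg/ml, about 60 h) to switch on the transgene or without it, and each condition had 2 ChIP libraries and 1 input library, 12 libraries in all. Both conditions carried the transgene. The state of the cells' own gene was not examined here, and the labels do not say whether a line was a single clone. The values analysed were 2 lists of peaks, 54623 for RNaseH1 and 1460 for REXO4, with no value per library, so no value below has a replicate error. The lists name the protein but not the doxycycline condition. Peak positions do not measure expression, so U2OS marker genes were not checked.

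Growth factor receptors switch on the kinases RAF, MEK and ERK in turn through RAS, and ERK enters the nucleus and induces genes within minutes. Some of the induced genes encode brakes on the same pathway. ERRFI1 (also MIG6) binds and inhibits receptors of the EGF receptor family. DUSP1, DUSP4 and DUSP5 are nuclear phosphatases that take the activating phosphates off MAP kinases, and DUSP6 does so to ERK in the cytoplasm. Sprouty proteins (SPRY1, SPRY2 and SPRY4) and the related Spred proteins (SPRED1 and SPRED2) act between the receptor and RAF. SPRED1 brings the RAS inhibitor neurofibromin to the membrane.

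All 10 genes had RNaseH1 peaks in the gene or within 10 kb of it, 34 peaks in all, and each gene had 2 or more. Of all 19866 protein-coding genes, 85.1% had an RNaseH1 peak in such a window and 64.0% had 2 or more. Of the 34 peaks, 11 were 1 kb wide or more (32.4%), against 9.90% of the RNaseH1 list. Such a wide peak was in the window of 9 of the 10 genes, against 32.5% of protein-coding genes. The exception was SPRY2, whose widest peak was 800 bp. All but SPRY1, 9 of the 10, had the summit of a peak within 1 kb of a gene boundary, against 64.9% of protein-coding genes. REXO4 peaks lay at 3 of the 10 genes, DUSP5, DUSP6 and SPRY2, against 7.01% of protein-coding genes. ERRFI1, at the top of the RNaseH1 values, had no REXO4 peak in its window.

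The promoter sequences that lie under an RNaseH1 summit are printed here. They are RefSeq entries of GRCh38.p14, which run from 250 bases before a gene start to 50 bases after it, written 5′ to 3′ along the gene. Entries exist for 8 of the 10 genes, 12 entries in all, and DUSP4 and DUSP5 have none in the table. The windows are chr1:8026260-8026559 for ERRFI1 (minus strand), chr4:123398136-123398435 for the internal start of SPRY1 (plus strand), chr12:89352452-89352751 for DUSP6 (minus strand) and chr13:80341077-80341376 for SPRY2 (minus strand). Capitals mark the 11 bases centred on an RNaseH1 summit. Most summits of the 34 RNaseH1 peaks lay outside such entries, among them that of SPRED1, 656 bp upstream of its start. At DUSP6 and SPRY2 the summit shown was of a weaker peak, with folds of 2.60 and 2.93 against highest folds of 3.88 and 3.14. In SPRY2 a run of capitals at the very end marks the REXO4 summit, cut short by the end of the entry.
ERRFI1: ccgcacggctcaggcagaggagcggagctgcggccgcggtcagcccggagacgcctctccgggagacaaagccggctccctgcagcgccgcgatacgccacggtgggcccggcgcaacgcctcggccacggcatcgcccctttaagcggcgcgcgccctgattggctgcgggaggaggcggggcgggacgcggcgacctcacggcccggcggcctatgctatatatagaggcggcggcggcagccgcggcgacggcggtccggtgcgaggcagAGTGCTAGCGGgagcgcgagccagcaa
SPRY1: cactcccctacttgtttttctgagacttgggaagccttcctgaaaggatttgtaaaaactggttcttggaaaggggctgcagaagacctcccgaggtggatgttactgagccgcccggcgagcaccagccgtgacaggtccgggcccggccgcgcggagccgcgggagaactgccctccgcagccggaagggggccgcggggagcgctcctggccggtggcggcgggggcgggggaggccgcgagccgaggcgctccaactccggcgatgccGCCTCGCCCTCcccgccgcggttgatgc
DUSP6: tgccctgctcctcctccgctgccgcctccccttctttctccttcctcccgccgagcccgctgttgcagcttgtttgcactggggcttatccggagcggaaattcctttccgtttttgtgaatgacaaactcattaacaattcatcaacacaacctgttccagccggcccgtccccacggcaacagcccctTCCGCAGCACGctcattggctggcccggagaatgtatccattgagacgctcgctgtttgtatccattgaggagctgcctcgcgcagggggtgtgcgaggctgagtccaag
SPRY2: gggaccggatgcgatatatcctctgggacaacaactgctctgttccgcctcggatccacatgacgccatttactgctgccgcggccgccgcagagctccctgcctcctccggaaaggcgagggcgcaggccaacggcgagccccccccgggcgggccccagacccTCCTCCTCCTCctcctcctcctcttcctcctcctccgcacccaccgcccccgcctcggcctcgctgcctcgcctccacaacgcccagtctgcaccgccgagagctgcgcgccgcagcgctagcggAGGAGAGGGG
The ERRFI1 window was 74.7% G and C, higher than 89.7% of all 35116 promoters of the table, and its observed over expected CpG ratio of 1.13 was higher than 98.3% of them. The SPRY1, DUSP6 and SPRY2 windows were 69.3%, 58.3% and 71.0% G and C, higher than 78.0%, 48.8% and 81.9% of promoters. Their CpG ratios of 0.892, 0.769 and 0.846 were higher than 79.5%, 64.5% and 73.6%. The SPRY2 summit fell in a run of repeated tcc triplets.

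**Figure D1:**
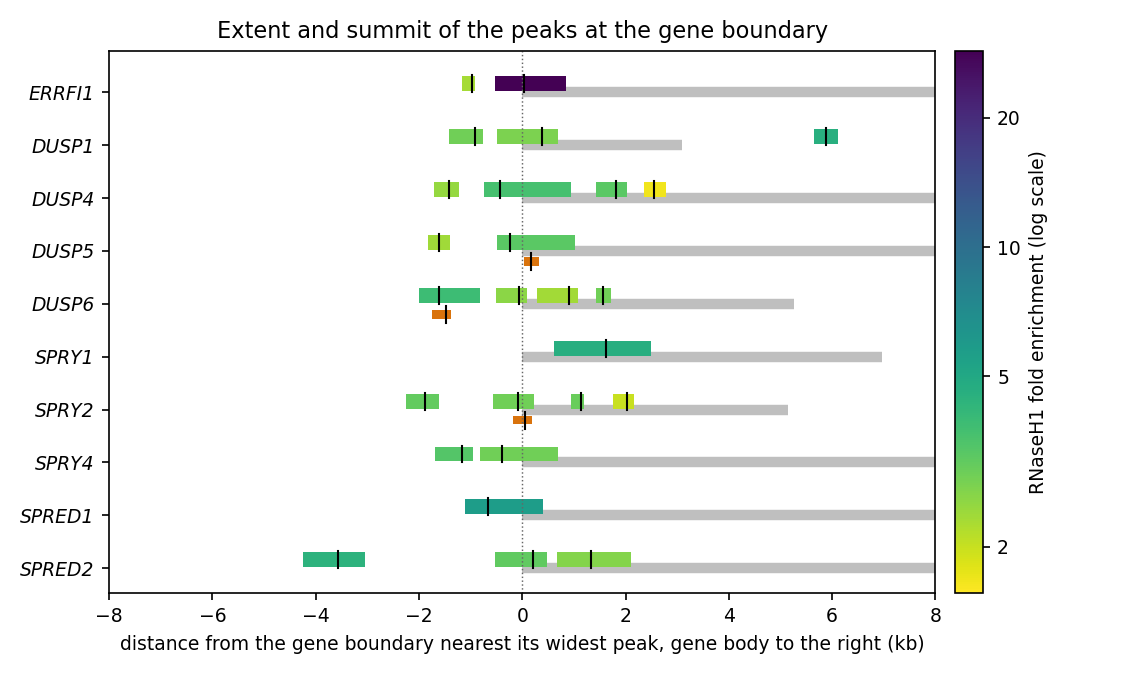
Map of the peaks around 1 boundary of each gene, the boundary nearest to its widest RNaseH1 peak, with distance in kb on the horizontal axis and the gene body (grey) to the right. Bars above the gene are RNaseH1 peaks coloured by fold enrichment, orange bars below are REXO4 peaks, and black ticks are summits. The ERRFI1 peak of 28.7-fold sits across the boundary, REXO4 bars appear at DUSP5, DUSP6 and SPRY2, and peaks beyond 8 kb are not drawn.

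ERRFI1 is on chromosome 1 from 8011727 to 8026309 on the minus strand. Its main RNaseH1 peak ran from 8025469 to 8026836, a width of 1368 bp, with the summit 28 bp inside the gene from its start. The fold enrichment, the authors' value of fragments at the summit over the expected number with 1 added to each, was 28.7 (95% interval 27.1 to 30.3, exact Poisson). This interval and all others below cover only the counting error of the fragments at the summit, with the expected number taken as fixed. The summit held 1308 fragments against an expected 44.6. These numbers were recovered from the fold and the p-value of the peak. The peak ranked 12 by fold and 3 by q, the p-value adjusted for the number of places tested, among the 54623 peaks. It also covered the start of ERRFI1-DT, a long noncoding RNA (lncRNA) gene on the other strand that starts 184 bp upstream of ERRFI1. The other peak of the window overlapped ERRFI1-DT alone, with its summit 971 bp upstream of the ERRFI1 start, with a fold of 2.31 (1.54 to 3.34, 26 fragments).

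Most peaks near ERRFI1 in the ranking lay at tRNA genes. A tRNA gene was no more than 1 kb from the summit for 9 of the 11 peaks of higher fold. The other two were at JUND and on an alternate scaffold of chromosome 6, whose genes were not used here. The peaks just above ERRFI1 were at JUND, an AP-1 subunit (31.1, 29.6 to 32.8), at TRK-TTT3-1 (30.0) and at LINC01623 with TRA-AGC2-2 (29.2). Those just below were at TRL-TAG3-1 (27.9), TRT-CGT2-1 (27.8) and TRX-CAT1-8 (27.0). The nearest tRNA gene to the ERRFI1 summit, TRN-GTT5-1, was 8494 kb away. Expected fragments at ERRFI1 and JUND were 44.6 and 46.4, the highest among the top 15 peaks by fold. Among protein-coding genes, 5 had a peak of this fold or more within 1 kb of a listed start, which were ERRFI1, JUND, RAB11A, ZNF839 and ALOXE3. The peaks at RAB11A, ZNF839 and ALOXE3 were among those counted above with a tRNA gene within 1 kb of the summit.

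**Figure D2:**
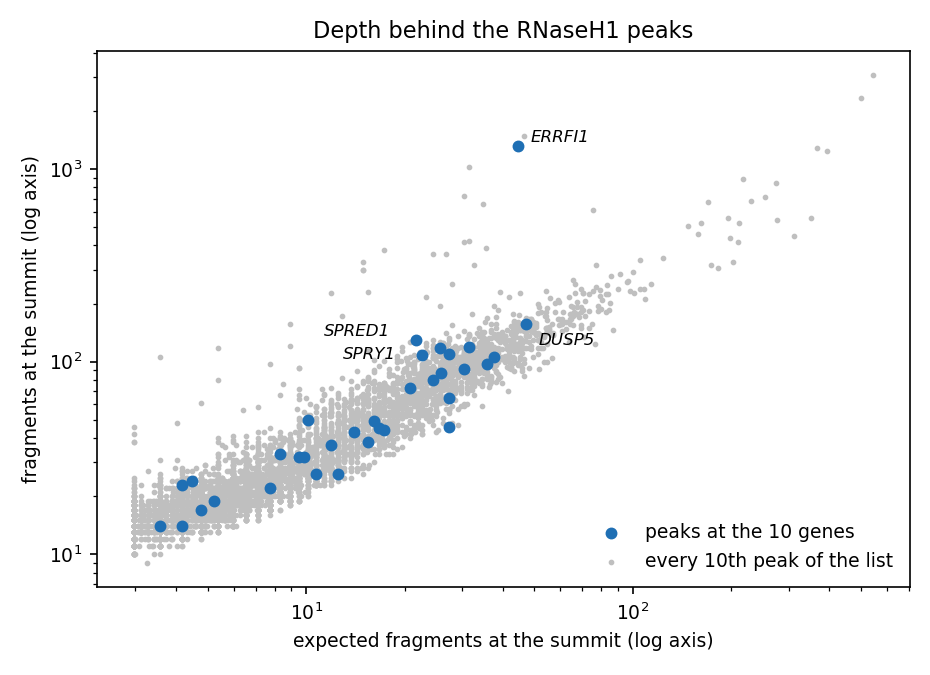
Fragments at the summit against the number expected there, both on log axes, for the 34 RNaseH1 peaks at the 10 genes (blue) and every 10th peak of the RNaseH1 list (grey). ERRFI1 stands above the band of the list with 1308 fragments against 44.6 expected, while the next highest fold of the 34 is that of SPRED1, with 129 against 21.7.

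The MAP kinase phosphatase genes DUSP1, DUSP4, DUSP5 and DUSP6 had 3, 5, 2 and 4 RNaseH1 peaks, and their highest folds ran from 3.27 at DUSP5 to 4.59 at DUSP1. At DUSP1, on chromosome 5 from 172768096 to 172771195, the widest peak (172770504 to 172771679, 1176 bp) covered the start and had a fold of 2.78 (2.28 to 3.36). A peak of 2.94 (2.14 to 3.93) lay 917 bp upstream, over the start of the lncRNA gene LOC105377730. The highest DUSP1 value, 4.59 (3.43 to 6.02), came from a peak outside annotated genes that lay 2.79 kb past the end of the gene. Counted on the gene body alone, DUSP1 thus had a highest fold of 2.78. At DUSP4, on chromosome 8 from 29333064 to 29350684, 5 peaks had folds of 3.12, 1.66, 3.27, 3.69 and 2.46 in order of position. The widest and highest (3.06 to 4.41) ran from 29349732 to 29351427 across the upper boundary of the gene and into the neighbouring lncRNA gene LOC124901924. The lowest of the 5, 1.66, was also the lowest fold of the 34 peaks.

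DUSP5 and DUSP6 had peaks of both proteins. DUSP5 lies on chromosome 10 from 110497907 to 110511533, and its RNaseH1 peak of 1501 bp (110497421 to 110498921) had a fold of 3.27 (2.78 to 3.82) with 156 fragments against an expected 47.0. Inside it lay a REXO4 peak of 293 bp with a fold of 1.81 (1.56 to 2.09), 185 fragments and a −log10 q of 9.02. The summits were 424 bp apart. A further RNaseH1 peak of 2.37 (1.69 to 3.23) overlapped DUSP5-DT, a neighbouring lncRNA gene. DUSP6, on chromosome 12 from 89347235 to 89352501, had 4 RNaseH1 peaks within 2 kb of its start. They had folds of 2.94 and 2.33 in the gene, 2.60 at the start and 3.88 (3.19 to 4.67) at 1612 bp upstream. This last peak held a REXO4 peak of 1.56 (1.24 to 1.93), near the weak end of the REXO4 list at rank 1392 of 1460 by fold, with a −log10 q of 0.977. All 4 RNaseH1 peaks overlapped POC1B-DUSP6, an annotated read-through gene. The upstream peak of 3.88 and the REXO4 peak inside it overlapped POC1B-DUSP6 alone and lay outside DUSP6, while the other 3 RNaseH1 peaks overlapped both annotations.

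The Sprouty genes differed in where their peaks stood. SPRY1, on chromosome 4 from 123396795 to 123403760, had the widest peak of the 34, 1880 bp, with a fold of 4.62 (3.79 to 5.56). Its summit was 27 bp past the internal start printed above and 1618 bp inside the gene boundary. The other SPRY1 peak, 9694 bp upstream, had 14 fragments and a fold of 3.28 (1.89 to 5.36). SPRY2, on chromosome 13 from 80335976 to 80341126, had 4 narrower peaks with folds of 2.00, 3.05, 2.93 and 3.14 in order of position. The third of these, from 80340901 to 80341700 over the outermost start, had 49 fragments against an expected 16.1 (2.18 to 3.85). A REXO4 peak with a fold of 2.33 (1.83 to 2.92) lay wholly inside it, with summits 125 bp apart. SPRY4, on chromosome 5 from 142310430 to 142325021, had adjoining peaks of 2.93 (2.37 to 3.60) and 3.39 (2.67 to 4.25). The wider one, 1509 bp, began 76 bp upstream of the listed start of SPRY4 and covered the start of SPRY4-AS1 on the other strand. In all, 5 of the 10 genes (ERRFI1, DUSP1, DUSP4, DUSP5 and SPRY4) had an RNaseH1 peak overlapping a neighbouring lncRNA gene, a count made after the values were seen. Of all protein-coding genes, 23.5% had an RNaseH1 peak in the window that overlapped a lncRNA gene.

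The Spred genes are long, and their peaks were spread more widely. SPRED1, on chromosome 15 from 38252836 to 38357249, had the second highest fold of the group, 5.72 (4.78 to 6.79), with 129 fragments against an expected 21.7 and rank 749 by fold. This peak was 1518 bp wide, covered the start and had its summit 656 bp upstream. The only other SPRED1 peak, 16330 bp into the gene, had a fold of 2.90 (1.68 to 4.74) on 14 fragments. SPRED2, on chromosome 2 from 65307175 to 65432599, had 8 peaks. At its start, peaks of 3.19 (2.54 to 3.96) and 2.67 (2.17 to 3.25) were 1003 and 1422 bp wide. A peak of 4.44 (3.68 to 5.31) lay 3577 bp upstream outside annotated genes. The 5 peaks deeper in the gene were 250 to 478 bp wide and had 19 to 33 fragments each. The highest SPRED2 fold, 4.65, came from one of these and had a wide interval (3.02 to 6.87, 23 fragments), which overlaps those of the peaks at 4.58 and 4.44.

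**Figure D3:**
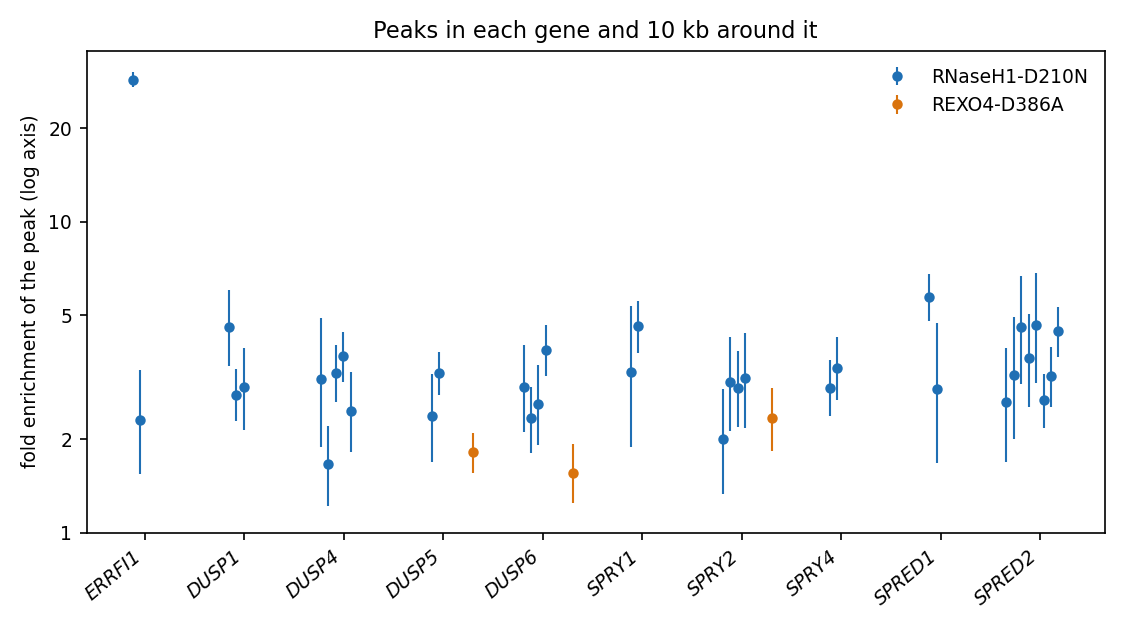
Fold enrichment (log axis) of every peak in each gene and 10 kb around it, RNaseH1-D210N in blue in order of position and REXO4-D386A in orange. Bars are 95% exact Poisson intervals of the fragments, which cover the counting error of those fragments only. The ERRFI1 peak of 28.7 stands apart from the other peaks, of which the highest is SPRED1 at 5.72.

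Ordered by their highest RNaseH1 fold, the genes were ERRFI1 (28.7), SPRED1 (5.72), SPRED2 (4.65), SPRY1 (4.62), DUSP1 (4.59), DUSP6 (3.88), DUSP4 (3.69), SPRY4 (3.39), DUSP5 (3.27) and SPRY2 (3.14). The interval of ERRFI1 was apart from all others, and its fold was 5.01 times that of SPRED1. From SPRED1 down, each interval overlapped that of the next gene, and the difference between neighbours was not tested. The median was 4.23 over the 10 genes and 3.61 over the 16907 protein-coding genes with a peak (interquartile range 3.12 to 4.17), and 7 of the 10 were above that median. Apart from ERRFI1 and SPRED1, which exceeded 99.9% and 97.4% of protein-coding genes, the highest folds were passed by at least 1 in 10 protein-coding genes. Over the 34 peaks the median fold was 3.13, close to the 3.07 of the whole RNaseH1 list.

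**Figure D4:**
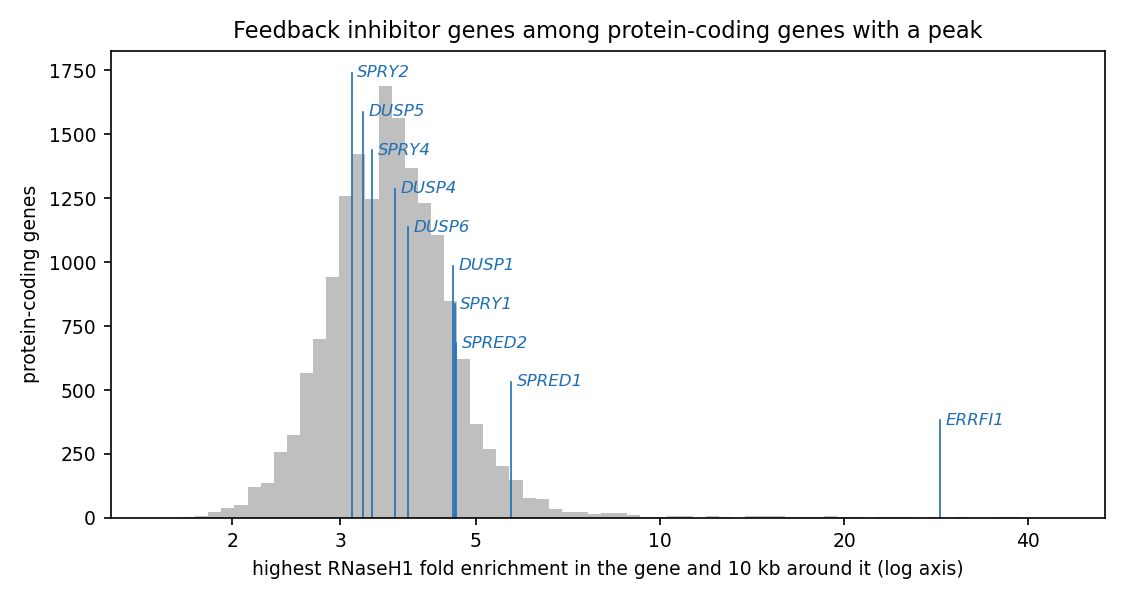
Histogram of the highest RNaseH1 fold enrichment (log axis) in the gene and 10 kb around it over the 16907 protein-coding genes with a peak, with the 10 feedback inhibitor genes as blue lines. ERRFI1 at 28.7 lies in the far tail and SPRED1 at 5.72 at its foot. The other genes lie between 3.14 and 4.65, and the highest of them, SPRED2, exceeds 89.6% of protein-coding genes.

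The density of peaks also varied. The median was 0.668 RNaseH1 peaks per 10 kb of window in the group and 0.369 over all protein-coding genes (interquartile range 0.147 to 0.763). SPRY2 (1.59), DUSP6 (1.58), DUSP4 (1.33) and DUSP1 (1.30) were the densest, and SPRED1 was the sparsest (0.161). The windows were shorter than usual, with a median of 34.1 kb against 44.5 kb. All 8 genes with a listed start had an RNaseH1 peak within 1 kb of a start, against 68.7% of the 15842 protein-coding genes with a listed start. In 7 of the 8 such a peak was 1 kb wide or more, against 25.1%. The widest peak at a start had a median of 1395 bp in the group and 849 bp over protein-coding genes with a peak there. Coverage was higher too, counted over all peaks and not those at starts alone. The median expected number of fragments was 16.4 over the 34 peaks and 7.14 over the RNaseH1 list, and the median number of fragments was 45.5 and 23.0. The part of coverage in the width of the peaks was not tested.

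Each of the 3 REXO4 peaks lay wholly inside an RNaseH1 peak, so 3 of the 34 RNaseH1 peaks overlapped a REXO4 peak. Of the RNaseH1 list, 1107 peaks (2.03%) overlapped one of the 1460 REXO4 peaks. How many of those 1460 lay inside an RNaseH1 peak was not counted. The 3 of 3 therefore cannot be called particular to these genes. The REXO4 folds of 1.56, 1.81 and 2.33 had a median of 1.81, against 2.30 for the REXO4 list. By start, 1 of the 8 genes with a listed start had a REXO4 peak within 1 kb, SPRY2, against 3.89% of protein-coding genes. With only peaks of q at 0.05 or less, the DUSP6 peak was lost and 2 of 10 genes remained, against 6.75% of protein-coding genes. The counts are small, and the RNaseH1 list is much longer than the REXO4 list. ERRFI1 and SPRED1, the genes of highest RNaseH1 fold, had no REXO4 peak, like most protein-coding genes, of which 7.01% had one.

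Sequence around the listed starts was rich in G and C in most members. The 12 entries belong to 8 genes, with 3 for SPRY2 and 2 each for SPRY1 and SPRED2. Over them the median was 64.0% G and C, against 58.67% over all 35116 promoters (interquartile range 47.0 to 68.0). The median CpG ratio was 0.8, against 0.58 over all promoters (interquartile range 0.23 to 0.86). Both medians of the group were within these ranges. Members ranged from 39.33% at the inner SPRED2 start, which had no peak within 1 kb, to 76.33% at SPRED1. An excess of G over C in the 50 bases after a start, (G − C)/(G + C), had a median of 0.22 in the group and 0.06 over all promoters (interquartile range −0.12 to 0.23). It was 0.28 at ERRFI1 and 0.47 at DUSP1, and −0.09 at SPRED1 and −0.33 at the outer SPRED2 start. Its relation to the folds was not tested. The cyclic AMP response element TGACGTCA was in 1 of the 12 entries, DUSP1, and in 1.85% of all promoters. The shorter element TGACG, which also counts inside the full one, was in 4 of 12 (DUSP1, SPRY2, SPRY4 and SPRED2) and in 24.6% of all promoters. The ETS motif CCGGAA was in 2 of 12 (SPRY1 and SPRY2) and in 17.2% of promoters, and the AP-1 motif TGANTCA in 1 of 12 (SPRED2) and in 7.71%. The serum response element was in 0 of 12 and in 1.29%, and TATAAA was in 2 of 12 (DUSP1 and SPRED2) and in 11.5%. Both strands were searched. The DUSP1 entry, chr5:172771146-172771445 on the minus strand, is shown because it alone held the full element, with every TGACG of either strand in capitals.
DUSP1: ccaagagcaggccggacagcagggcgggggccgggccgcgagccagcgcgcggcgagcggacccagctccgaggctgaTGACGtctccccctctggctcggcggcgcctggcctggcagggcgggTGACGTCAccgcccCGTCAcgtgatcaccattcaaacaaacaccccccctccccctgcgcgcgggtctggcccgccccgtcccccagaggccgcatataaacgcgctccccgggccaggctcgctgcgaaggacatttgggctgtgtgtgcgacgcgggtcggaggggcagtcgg
The RNaseH1 summit of DUSP1 nearest to its start was inside the gene, outside this window.

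Other genes of the pathway, listed by role, had RNaseH1 peaks about as often. Of all protein-coding genes, 85.1% had such a peak in the window. Of 25 ligands and receptors, 23 had a peak in the window, with EGF and FGF7 as the exceptions. The highest folds there were at the receptors FGFR2 (6.02), EGFR (5.03) and FGFR3 (4.98) and at the ligand PDGFB (4.88). All 23 genes of the RAS to ERK cascade had a peak, led by NRAS (5.76), the kinase ARAF (4.91), the adaptor FRS2 (4.79) and the exchange factor SOS1 (4.54). All 27 genes induced through ERK had a peak, led by the transcription factors JUND (31.1), EGR1 (7.66), FOS (6.35) and KLF4 (5.59). So did all 22 other attenuators, led by the phosphatase DUSP9 (5.83), the RAS GTPase-activating protein RASA1 (5.62), the phosphatase DUSP16 (4.80) and the ubiquitin ligase CBL (4.78). The median of the highest fold was 4.23 in the feedback inhibitors, against 3.80, 3.87, 4.11 and 3.76 in these lists in the order given. Wide peaks at a listed start were at 7 of 8 feedback inhibitors, against 11 of 22, 10 of 18, 15 of 19 and 12 of 20 genes in the same order. The median density was 0.668 peaks per 10 kb in the feedback inhibitors, against 1.11 in the genes induced through ERK and 0.238 in the ligands and receptors. REXO4 peaks lay at 5 of 25, 2 of 23, 1 of 27 and 4 of 22 genes of the lists, against 7.01% of protein-coding genes. They included FGFR2 (2.00), IGF1R (2.54), MET (1.55) and PDGFB (1.73) among receptors and ligands, SOS1 (1.46) and BRAF (1.84) in the cascade, KLF2 (1.93) among the induced genes, and DUSP7 (1.62), DUSP8 (1.99), DUSP16 (2.03) and SPRED3 (3.62) among the attenuators.

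**Figure D5:**
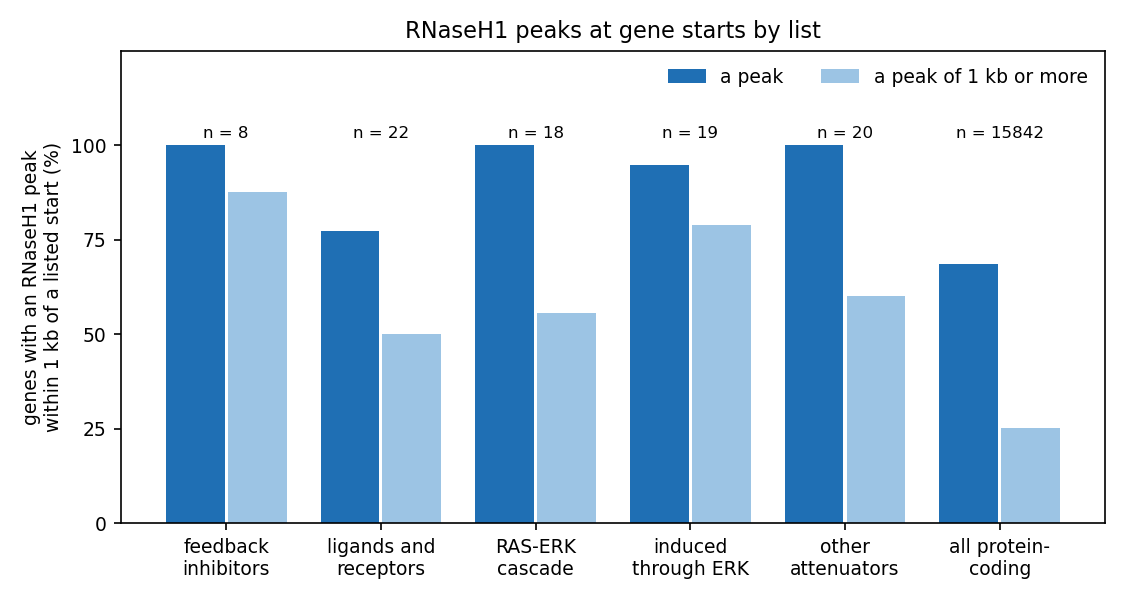
Share of genes with an RNaseH1 peak (dark) and with an RNaseH1 peak of 1 kb or more (light) within 1 kb of a listed start, for the feedback inhibitors, the other lists of the pathway and all protein-coding genes, with the number of genes that have a listed start above. The feedback inhibitors stand at 8 and 7 of 8, the genes induced through ERK at 18 and 15 of 19, and all protein-coding genes at 68.7% and 25.1%.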

How the data were processed

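The sources were the labels of 12 libraries, the submitters' processing notes and a peak list for each protein. The submitters' processing notes name, in no order, the peak caller MACS2 2.1.0.20150731, the aligner HISAT2 2.2.1, deepTools 3.5.1, SAMtools 1.17, Trim Galore 0.6.10, Cufflinks and the build hg38. Control, threshold, pooling of replicates and doxycycline condition of each list: not given in the sources used here. Names of peaks in both files carry a label that ends in 2, so a list may rest on a single replicate. Each peak has the authors' deposited fold enrichment (a ratio) and, also as deposited, its −log10 q and −log10 p-value. The score column, as deposited, was not used. Library totals were not analysed, so depth is known only through the fragments at each summit.

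Fragments and their expected number were recovered here from fold and p, whole within 0.05 for 54623 of 54623 RNaseH1 and 1459 of 1460 REXO4 peaks. Genes were RefSeq (GRCh38.p14, primary chromosomes in hg38 coordinates), 58961 of 59792 kept, and 831 without an ordered position were left out. A peak belonged to a gene when it overlapped the gene or 10 kb on either side by at least 1 bp. Promoter entries gave strands and starts. Counting and recovery were checked on simulated data. All 10 members are named, with the 4 genes of highest fold and up to 4 genes with a REXO4 peak per list, the genes of the 3 peaks ranked above and below ERRFI1, and annotated genes under a member's peaks. Members and lists were chosen with earlier results of these data known. No test was run, since neither list has values per library. Figures were drawn with matplotlib 3.10.9, and values computed with SciPy 1.17.1, pandas 2.3.3 and NumPy 2.4.6 in Python 3.11.15.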

Additional observations from a re-analysis of the deposited data

How the results depend on the processing

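All 10 genes kept an RNaseH1 peak with the window set to the gene body, 1 kb or 50 kb, with q held to 0.05 or 1e-05, and with peaks assigned by summit or by 50% of their width. With the RNaseH1 list cut to its peaks of lowest q, as many as the REXO4 list holds, 2 of 10 genes (ERRFI1 and SPRED1) and 1625 protein-coding genes (8.18%) had a peak. The 50 kb window gave 57 RNaseH1 peaks at the members and raised protein-coding genes with a REXO4 peak to 2608 (13.1%). With q of 1e-05 there were 713 such genes (3.59%), against 1392 (7.01%) as reported. Members with a REXO4 peak numbered 2 or 3 throughout, against 3.59% to 13.1% of protein-coding genes. The median of the highest folds ran from 3.48 (gene body) to 4.60 (50 kb). On the gene body alone the highest fold was 2.78 at DUSP1 and 2.94 at DUSP6, while 50 kb gave 4.91 at DUSP6 and 4.42 at SPRY4. Listed starts within 500 bp or 2 kb gave 8 of 8 genes, and summits within 1 kb gave 7. The share over protein-coding genes was not counted at these start settings. No paired analysis was possible because the peak lists carry no value per library, and for the same reason no replicate could be left out. Folds of peaks with few fragments are limited by counting error, and weak sites below the authors' threshold are not in these lists.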
